A study of Mus musculus with 30 samples.

Results

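Transcript levels of 7 genes were followed in C2C12 cells, a mouse myoblast line, while the cells differentiated into muscle with or without hexavalent chromium, Cr(VI). 4 of the genes encode proteins best known from smooth muscle (Tagln, Cnn1, Myl9 and Cald1). The other 3 (Ctgf, Cyr61 and Ankrd1) are widely used as targets of the transcriptional coactivator YAP and of serum response factor, SRF. Ctgf and Cyr61 are the older names of Ccn2 and Ccn1. The 7 were taken by name from the 48709 genes of the deposited table, and all 7 were among the 12946 genes that passed the filter on low values (a level of at least 1 in at least 3 libraries). Cnn1 passed it through its day 0 libraries.

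The 30 libraries form 10 groups of 3 biological replicates. Undifferentiated cells were collected at day 0 without chromium. From then on cells were kept in a low-serum differentiation medium that held no Cr(VI), 2 µM or 5 µM, given as potassium chromate, and were collected at days 1, 2 and 4. Day 0 cells came from serum-rich growth medium, so the step from day 0 to day 1 changed the medium as well as the day. All groups are the same cell line in culture, with no transgene or deletion named in the labels. The labels do not say whether replicates came from separate cultures, so p-values measure the spread between these samples. Values are reads per gene scaled to a nearly constant total per library (scaled CPM) on a linear scale, with no correction for gene length. Levels were therefore compared between groups for the same gene and not between genes. A log2 change below is a difference of group means of log2(scaled CPM + 1), tested with limma over all 30 libraries; "adjusted p" is the Benjamini-Hochberg value over all genes tested, and a gene is said to have risen or fallen where it was below 0.05. The + 1 makes changes of low genes smaller than their true fold.

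The contractile genes are classically switched on by SRF, which binds a short sequence called the CArG box together with one of 2 kinds of coactivator: myocardin, or the myocardin-related factors Mkl1 and Mkl2 that are held in the cytoplasm by unpolymerised actin. YAP and its relative TAZ (Wwtr1) are kept out of the nucleus by the Hippo kinases Lats1 and Lats2 and act on DNA through the TEAD factors, whose recognition sequence contains GGAATG. Both systems respond to serum, cell tension and the actin cytoskeleton, and their target genes overlap. Skeletal myoblasts express several smooth muscle genes before and during fusion, when sarcomeric isoforms also appear.

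Promoter sequences were looked up for the 7 genes in RefSeq (build GRCm38.p6; the build behind the deposited table is not given in the sources used here). Windows of 250 bases before an annotated start were found for 5 of them: Cnn1, Myl9, Cald1, Cyr61 and Ankrd1. They were searched on both strands for the CArG box and for GGAATG, which share no overlapping match. Of 32851 such windows in the mouse genome, 1.47% held a CArG box and 12.6% held GGAATG. 4 of the 5 genes held a match to 1 motif or the other, and those 4 are shown for that reason. Whether the matches go with the transcript levels below was not tested. Each is printed 5′ to 3′ in the gene's own direction and stops at the first annotated base of the gene, with matches in capitals.
Myl9, chr2:156775214-156775407, plus strand: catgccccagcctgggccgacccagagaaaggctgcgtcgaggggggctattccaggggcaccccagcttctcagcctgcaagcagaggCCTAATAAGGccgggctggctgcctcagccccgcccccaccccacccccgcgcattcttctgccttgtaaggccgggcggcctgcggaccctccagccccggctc
Cald1, chr6:34598254-34598494, plus strand: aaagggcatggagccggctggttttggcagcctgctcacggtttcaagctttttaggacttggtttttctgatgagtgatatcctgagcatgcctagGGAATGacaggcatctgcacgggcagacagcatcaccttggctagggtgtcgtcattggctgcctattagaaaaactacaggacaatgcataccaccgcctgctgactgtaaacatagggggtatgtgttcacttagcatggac
Cyr61 (Ccn1), chr3:145649986-145650235, minus strand: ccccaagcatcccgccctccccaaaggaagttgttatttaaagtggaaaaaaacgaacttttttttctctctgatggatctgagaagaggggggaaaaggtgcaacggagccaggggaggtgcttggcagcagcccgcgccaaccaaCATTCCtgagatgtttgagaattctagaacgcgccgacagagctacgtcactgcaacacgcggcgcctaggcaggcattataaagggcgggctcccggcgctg
Ankrd1, chr19:36119845-36120094, minus strand: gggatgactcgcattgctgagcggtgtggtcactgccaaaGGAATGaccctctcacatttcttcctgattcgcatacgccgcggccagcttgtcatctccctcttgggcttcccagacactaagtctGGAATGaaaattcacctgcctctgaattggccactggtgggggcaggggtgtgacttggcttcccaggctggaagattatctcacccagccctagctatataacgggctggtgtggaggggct
In Myl9 the capitals are a CArG box at bases -161 to -152, counted from the annotated start. That start is base 156775464 for Myl9 and base 34598504 for Cald1, in both some way beyond the end of the printed stretch. In Cald1 they are GGAATG at -153 to -148, and in Cyr61 the same word on the opposite strand at -103 to -98. Ankrd1 held GGAATG in 2 places, at -210 to -205 and at -123 to -118. Neither motif was in the Cnn1 window or in the 250 bases before a second Cald1 start, which lies inside the gene and is not printed. A match in these letters is a description of the sequence, and binding was not measured.

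The libraries held between 18.46 and 26.95 M reads, and replicates of a group correlated at 0.955 to 0.991 (Pearson r across genes). The 5 markers of myogenic cells were present in every group, their sum running from 995 to 1215 scaled CPM at day 0 and from 4576 to 5338 in untreated cells at day 4. It was lower at 5 µM on each day: 1591 to 1861 against 2791 to 2866 in untreated cells at day 1, 3126 to 3321 against 4446 to 4933 at day 2, and 2425 to 2968 at day 4. In bulk RNA, fewer cells of a type and less RNA per cell cannot be told apart. Mitochondrial transcripts took 8.40%, 7.83% and 10.1% of reads in untreated cells at days 1, 2 and 4 and 10.2%, 10.3% and 12.0% at 5 µM (means of n = 3, SD 0.39 to 1.28), and their part in the results was not tested. 2 day 1 libraries stood apart: replicate 1 at 2 µM held adipocyte transcripts (marker sum 2946 scaled CPM), with endothelial (20.1) and fibroblast (97.2) markers. Replicate 3 at 5 µM held transcripts of lung epithelium (326.6), leukocytes (227.2) and endothelium (15.3). In the other 28 libraries these sums reached at most 1.21 for adipocytes, 0.36 for lung epithelium, 0.619 for endothelium, 0.673 for leukocytes and 27.0 for fibroblasts. The day 1 changes of Tagln, Myl9 and Ctgf at 5 µM against untreated cells are therefore given with and without this pair of libraries. Other day 1 results include the pair unless stated, among them all day 1 counts and medians of gene lists.

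Cells of vascular smooth muscle would also express the contractile genes, so their markers were summed in each group. The 6 markers summed to 33.7 to 47.7 scaled CPM in untreated day 4 cells, 15.2 to 22.0 at 2 µM and 1.79 to 4.67 at 5 µM. At day 2 the ranges were 26.6 to 33.7, 17.9 to 18.6 and 5.30 to 6.96. At day 1 they were 18.5 to 22.7, 9.74 to 14.8 and 8.79 to 25.8, the highest value at 5 µM being the library with lung transcripts. Actg2, which is also on the contractile list below, averaged 30.9 in untreated day 4 cells and so made up much of their sum. In every group that library did not belong to, 4 or 5 of the 6 were below 1 scaled CPM in all libraries. Myh11, which defines the type, was listed at 0 in every untreated and 2 µM library, and at 0.141, 0.821 and 1.05 at 5 µM on day 4. On day 1 at 5 µM it was at 0.725, 0 and 3.13, the last being the library with lung transcripts. On day 2 at 5 µM it was at 0.0438, 0 and 0.176. The sum was lower at days 2 and 4 in the same order of dose as Tagln. Actg2 by itself had that order, and Myh11 did not. In untreated, 2 µM and 5 µM cells Actg2 averaged 26.7, 16.6 and 5.79 scaled CPM at day 2. At day 4 it averaged 30.9, 13.8 and 1.57. The sum itself had medians of 43.7, 20.9 and 2.78 at day 4. On both days the part of the sum outside Actg2 was on average also lower at each higher dose. Apart from Myh11, the markers in that part were not read one by one. The sum cannot tell smooth muscle cells from a change of single markers such as Actg2, and its part in the Tagln and Myl9 results was not tested.

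Tagln (transgelin, or SM22, an actin-binding protein of the smooth muscle cytoskeleton; chr9:45929628-45936058) had the greatest log2 change of the 7 at 5 µM on each day. In untreated cells it was at 137.5, 158.9 and 152.3 scaled CPM at day 0 and 47.1, 41.5 and 46.1 at day 1. It was then at 107.6, 102.3 and 121.7 at day 2 and at 232.7, 304.4 and 241.2 at day 4, above every day 0 library. Each of the 3 steps passed the test, at log2 changes of -1.71, 1.28 and 1.22.

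Tagln was lower than in untreated cells at both doses of chromium. At 2 µM its values were 28.5, 29.3 and 27.2 at day 1, 47.8, 60.0 and 60.0 at day 2, and 107.3, 123.3 and 127.6 at day 4, higher on each later day but below untreated cells without overlap (steps between days at 2 µM were not tested). At 5 µM they were 15.5, 19.5 and 19.8 at day 1, 12.5, 19.8 and 18.4 at day 2, and 6.54, 6.61 and 4.38 at day 4. From day 2 to day 4 Tagln fell at 5 µM, with a log2 change of -1.38 (adjusted p = 2.5e-09), the interval in which untreated cells rose.

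Against untreated cells of the same day, Tagln at 5 µM was 2.46-fold lower at day 1, 6.54-fold lower at day 2 and 44.4-fold lower at day 4 (ratios of mean scaled CPM). The log2 changes were -1.26 ± 0.15 (SE, n = 3 per group; limma adjusted p = 7.1e-08), -2.66 ± 0.15 (9.6e-16) and -5.26 ± 0.15 (1.3e-24). At 2 µM the means were 63.1%, 50.6% and 46.0% of untreated cells, with log2 changes of -0.64 (adjusted p = 0.012), -0.97 (3.1e-04) and -1.11 (2.2e-06). Tagln also separated the doses from each other on all 3 days, with log2 changes of -0.61 (adjusted p = 0.0083), -1.69 (2.1e-10) and -4.15 (4.2e-21) for 5 against 2 µM. Ranges as fully apart as these were seen in 27.3%, 43.2% and 58.8% of all genes for 5 µM against untreated cells on days 1, 2 and 4, and in 15.6%, 21.1% and 23.6% for 2 µM. Without the pair of day 1 libraries, the day 1 changes were -1.32 for 5 µM and -0.65 for 2 µM against untreated cells and -0.67 for 5 against 2 µM, all still called. The day 1 call at 2 µM was lost when replicate 1 or 3 of untreated cells was left out (adjusted p = 0.069 and 0.060), or replicate 1 at 2 µM (0.050), and that for 5 against 2 µM when replicate 1 at 5 µM was (0.064). Fits of only the groups compared lost both (0.20 and 0.19).

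**Figure D1:**
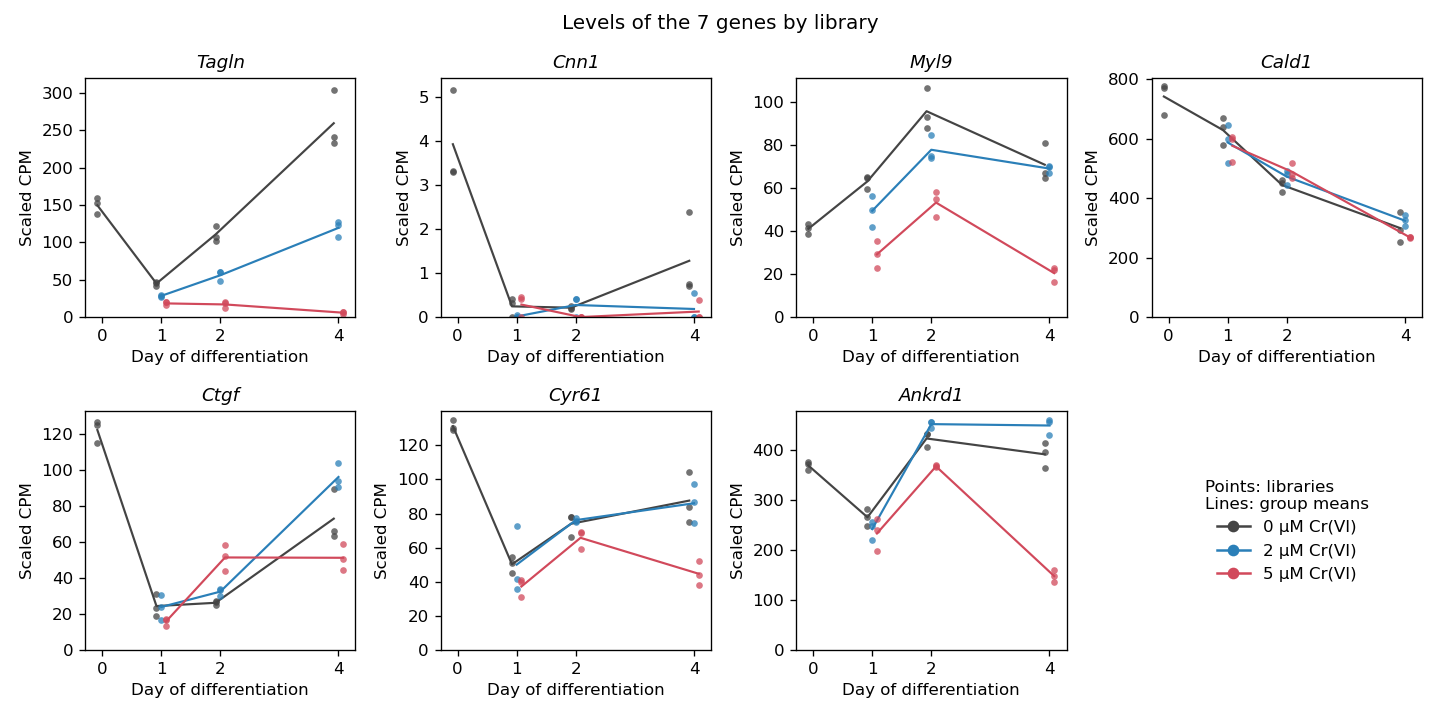
Level of each of the 7 genes in every library, in scaled CPM on an axis of its own per gene, against day of differentiation; points are libraries and lines join group means for untreated, 2 µM and 5 µM cells. Tagln fans out by dose, Ctgf crosses over at day 2, and Ankrd1 is far below untreated levels at 5 µM on day 4 alone (136.2 to 160.1 against 364.2 to 415.3).

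Myl9 (a regulatory light chain of smooth muscle and non-muscle myosin; chr2:156775408-156781657), whose promoter window holds the CArG box above, followed another course in untreated cells. It was at 41.4, 38.4 and 43.1 scaled CPM at day 0, 59.3, 64.5 and 65.2 at day 1, 92.6, 87.7 and 106.3 at day 2 and 66.7, 80.8 and 64.6 at day 4. It rose at the first 2 steps (log2 changes 0.61 and 0.59) while Tagln, Ctgf and Cyr61 fell at the first. It fell from day 2 to day 4, by 0.43 on the log2 scale (adjusted p = 0.017), a call lost without replicate 3 of day 2 (0.10) or replicate 1 or 3 of day 4 (0.067 and 0.076).

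At 5 µM Myl9 was at 29.4, 35.1 and 22.7 at day 1, 46.7, 58.2 and 54.6 at day 2, and 21.9, 16.5 and 22.8 at day 4, below every untreated library of the same day. Of all genes, 27.3%, 43.2% and 58.8% had ranges apart on those days. The log2 changes of Myl9 were -1.11 ± 0.14 (SE, limma adjusted p = 2.0e-07), -0.84 ± 0.14 (1.4e-05) and -1.75 ± 0.14 (6.5e-13), and -0.95 at day 1 without the pair of libraries. At day 4 the mean was 28.8% of that in untreated cells. At 2 µM Myl9 was at 41.9, 49.7 and 56.4, then 73.7, 84.4 and 74.8, then 69.8, 66.8 and 70.1. Days 1 and 2 did not overlap with untreated cells, where 15.6% and 21.1% of all genes had ranges apart. None of the 3 changes of Myl9 passed the limma test (-0.36, -0.29 and -0.03, adjusted p = 0.21, 0.54 and 0.95). The 95% interval at day 4 ran from -0.31 to 0.25. Between doses Myl9 was lower at 5 µM on each day, with log2 changes of -0.75, -0.54 and -1.72 (adjusted p = 3.9e-04, 0.0056 and 2.2e-12). The day 1 call was lost in a fit of only the groups compared (0.21) and the day 2 call without replicate 1 at 5 µM (0.056).

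Cald1 (caldesmon, an actin- and calmodulin-binding regulator of contraction, also made in a non-muscle form; chr6:34598495-34775469) fell over time in untreated cells, and neither dose was called against them on any day. Its untreated values were 768, 679 and 776 at day 0, 638, 577 and 670 at day 1, 461, 450 and 420 at day 2, and 291, 253 and 353 at day 4. All 3 steps were called (log2 changes -0.24, -0.50 and -0.58), the first at an adjusted p of 0.036, which rose to between 0.057 and 0.17 without replicate 1 or 3 of day 0 or replicate 1 or 2 of day 1. That call was also lost with TMM scaling (0.053), no level filter (0.067), edgeR (0.059) and only the groups compared (0.058). At 5 µM the values were 600, 606 and 520, then 517, 482 and 468, then 269.4, 269.2 and 265.8. Those of day 2 lay above untreated cells without overlap, where 43.2% of all genes had ranges apart. None of the differences from untreated cells passed the test at 5 µM (-0.13, 0.14 and -0.14; adjusted p = 0.43, 0.31 and 0.20), although that of day 4 did with quantile normalization (-0.22, 0.035) and without untreated replicate 2 (-0.26, 0.024). The 95% intervals ran from -0.32 to 0.064 at day 1, -0.052 to 0.33 at day 2 and -0.33 to 0.048 at day 4. At 2 µM the values were 518, 644 and 597, then 492, 479 and 445, then 342, 325 and 305, and overlapped with untreated cells on each day. The single call between doses was at day 4, where 5 µM was below 2 µM by 0.27 (adjusted p = 0.017; 0.078 without replicate 1 at 2 µM). The deposited table has 1 row for the gene, so its smooth muscle and non-muscle forms were not told apart.

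Cnn1 (calponin, an actin-binding inhibitor of smooth muscle myosin; chr9:22099221-22109221) was near the lower limit of the data throughout. Its libraries were at 3.28, 3.32 and 5.16 scaled CPM at day 0 and at 0.754, 2.38 and 0.696 in untreated cells at day 4, the second of these resting on 47 reads. All others lay between 0 and 0.551, at most 12 reads, and 12 of the 30 libraries listed it at 0. A listed 0 does not always mean few reads here. Where 1 replicate had 11 to 20 reads for a gene, a second one listed it at 0 in 31.4% of cases. Since the filter kept Cnn1 for its day 0 level, its lower level at day 1 (0.308, 0 and 0.420 in untreated cells) is a description and is given no test. At day 4 it was listed at 0.377, 0 and 0 at 5 µM (-0.96, adjusted p = 0.0068) and at 0.551, 0 and 0 at 2 µM (-0.90, adjusted p = 0.053, and below 0.05 in 5 of the alternatives). On the reads recovered from the values, the 5 µM change at day 4 was greater but did not pass with edgeR (-3.28, adjusted p = 0.10) or DESeq2 (-3.37, 0.061), nor in limma without untreated replicate 2 (0.092).

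Ctgf (Ccn2, connective tissue growth factor, a secreted matricellular protein and a standard YAP readout; chr10:24595442-24598683) reversed direction with time at 5 µM. In untreated cells it fell from 126.9, 114.9 and 124.9 scaled CPM at day 0 to 31.4, 18.7 and 23.2 at day 1, was at 25.0, 26.7 and 27.0 at day 2 and rose to 66.2, 89.6 and 63.2 at day 4. At 5 µM it was at 16.7, 13.3 and 17.4 at day 1, 43.9, 52.0 and 58.4 at day 2, and 59.1, 44.4 and 50.3 at day 4. It was therefore below all untreated libraries at day 1, above all of them at day 2, and below all of them again at day 4, without overlap on any day. Of all genes, 27.3%, 43.2% and 58.8% had ranges apart on those days, in either direction.

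The log2 changes of Ctgf at 5 µM were -0.58 ± 0.17 (SE; limma adjusted p = 0.020), 0.94 ± 0.17 (7.0e-05) and -0.49 ± 0.17 (0.014). The day 2 rise, 1.96-fold in mean scaled CPM, kept its call in every alternative run. The flanking falls were less firm. That of day 1 was -0.64 (adjusted p = 0.0077) without the pair of libraries, but 0.18 and 0.11 were the adjusted p-values without untreated replicate 1 and without replicate 2 at 5 µM, 0.051 with no filter and 0.18 with only the groups compared. That of day 4 reached 0.12 without untreated replicate 2 and 0.081 without replicate 2 at 5 µM. At 2 µM Ctgf was at 16.8, 24.1 and 30.9, then 30.0, 34.1 and 33.2, then 90.4, 104.1 and 93.9. At days 2 and 4 these lay above untreated cells without overlap, where 21.1% and 23.6% of all genes had ranges apart. Neither change of Ctgf passed in limma (0.29 and 0.41, adjusted p = 0.73 and 0.14). At day 4 the doses thus lay on either side of untreated cells, and 5 against 2 µM was called at -0.90 (adjusted p = 4.4e-05), after 0.64 (0.0091) at day 2. Without replicate 3 at 5 µM, the day 2 difference between doses had an adjusted p of 0.062. At day 1 the difference between doses was -0.54 (adjusted p = 0.056), and it passed at -0.83 (0.0060) without the pair of libraries and with edgeR (-0.59, 0.042) and DESeq2 (-0.59, 0.024).

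Cyr61 (Ccn1, a secreted matricellular relative of Ctgf and an immediate early serum-response gene; chr3:145646971-145649985) was called at 5 µM on day 4 alone. Its untreated values were 130.2, 134.7 and 128.9 at day 0, 45.4, 50.8 and 54.7 at day 1, 78.0, 66.0 and 78.1 at day 2, and 75.0, 104.1 and 83.7 at day 4. At 5 µM it was at 39.8, 41.0 and 31.0, then 69.3, 59.5 and 68.6, then 38.4, 51.9 and 43.8. Days 1 and 4 lay below untreated cells without overlap, where 27.3% and 58.8% of all genes had ranges apart. The day 4 change was -0.95 ± 0.16 (SE; limma adjusted p = 7.0e-06), a mean at 51.1% of untreated cells. Days 1 and 2 gave -0.43 and -0.17 (adjusted p = 0.076 and 0.52). At 2 µM its values were 72.6, 35.8 and 41.9 at day 1, the highest being the library with adipocyte transcripts, then 75.2, 75.8 and 77.5, then 74.4, 97.3 and 86.6. They overlapped with untreated cells on each day, and the day 4 change of -0.02 had a 95% interval of -0.35 to 0.31. At day 4 Cyr61 was lower at 5 than at 2 µM by 0.93 on the log2 scale (adjusted p = 1.4e-05).

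Ankrd1 (cardiac ankyrin repeat protein, a stretch-responsive nuclear and sarcomeric protein of striated muscle; chr19:36111965-36119844) was most clearly below untreated cells at 5 µM on day 4. In untreated cells it was at 376.9, 359.6 and 372.0 at day 0, 267.1, 248.4 and 282.3 at day 1, 431.8, 407.1 and 432.1 at day 2, and 396.4, 415.3 and 364.2 at day 4. At 5 µM it was at 262.1, 240.5 and 197.5 at day 1 and 366.0, 369.9 and 367.6 at day 2, rising between them as untreated cells did (log2 changes 0.66 and 0.67). At day 4 it was at 136.2, 147.8 and 160.1. The 5 µM values of days 2 and 4 lay below untreated cells without overlap, where 43.2% and 58.8% of all genes had ranges apart. The log2 changes against untreated cells were -0.20 (adjusted p = 0.12; 0.028 without replicate 1 at 5 µM), -0.20 (0.076) and -1.40 ± 0.083 (SE; limma adjusted p = 7.7e-16), the last a mean at 37.8% of untreated cells. The day 2 change passed with quantile normalization (-0.24, 0.014), only the groups compared (0.016), without the pair of day 1 libraries (0.029) and, just, with DESeq2 (0.050). At 2 µM it was at 220.4, 249.2 and 257.0, then 456.1, 456.2 and 445.0, then 430.7, 461.6 and 456.6. Days 2 and 4 lay above untreated cells without overlap, where 21.1% and 23.6% of all genes had ranges apart. The Ankrd1 changes of 0.095 and 0.20 did not pass in limma (adjusted p = 0.89 and 0.14). Between doses Ankrd1 was called at day 2 (-0.30, adjusted p = 0.013) and day 4 (-1.60, 7.6e-17).

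Read as a group, 3 of the 7 were called at 5 µM on day 1, all lower; 3 on day 2, of which Ctgf was higher and Tagln and Myl9 lower; and 6 on day 4, all lower, with Cald1 the one left. Of all genes tested 13.7%, 23.7% and 55.8% were called on those days: 4.29%, 10.2% and 27.3% higher, and 9.41%, 13.4% and 28.6% lower. The median log2 change over the 7 was -0.43, -0.20 and -0.96, beside -0.0075, -0.013 and -0.0095 over all genes. At 2 µM Tagln alone was called, on each of the 3 days, lower each time, where 1.99%, 0.51% and 8.84% of genes were called and 1.48%, 0.247% and 3.74% were lower. For 5 against 2 µM, 2, 4 and 6 of the 7 were called, beside 5.54%, 12.8% and 47.6% of all genes. Apart from Ctgf at day 2 (4.64% of all genes were higher there) they were lower, as were 4.25%, 8.13% and 24.8% of all genes. In untreated cells the 6 other than Cnn1 were called from day 0 to day 1 (48.1% of all genes were, 25.4% higher and 22.7% lower), with Myl9 the only one of them to rise. 5 were called from day 1 to day 2 (22.2%, 12.8% higher and 9.42% lower) and 5 from day 2 to day 4 (25.7%, 11.7% higher and 14.1% lower). The second step raised Tagln, Myl9, Cyr61 and Ankrd1 and lowered Cald1, and Ctgf did not pass (0.13, adjusted p = 0.66). The third raised Tagln, Ctgf and Cnn1 and lowered Myl9 and Cald1. Of those third-step calls, Cnn1 was lost with edgeR (adjusted p = 0.28), DESeq2 (0.22), pseudocounts of 0.1 (0.14) and 5 (0.050), only the groups compared (0.074), without any 1 of the 3 day 2 replicates (0.075 to 0.089) and without replicate 2 of day 4 (0.27). The second-step call of Cyr61 was lost without replicate 1 of day 1 (0.066) or replicate 1 or 3 of day 2 (0.053 and 0.052).

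Whether the 5 µM effect itself changed with time was tested as a difference of differences. From day 1 to day 2 it changed for Tagln (-1.40) and Ctgf (1.51), in opposite directions, where 5.8% of genes were called (3.04% upward and 2.76% downward). From day 2 to day 4 it moved downward for 5 of the 7, beside 23.7% of all genes called and 11.2% downward: -2.60 for Tagln, -1.43 for Ctgf, -1.20 for Ankrd1, -0.92 for Myl9 and -0.78 for Cyr61 on the log2 scale. For Cald1 it was -0.28 (adjusted p = 0.13; 0.022 without untreated replicate 2 of day 4). Within the 5 µM cells, 4 of the 7 rose from day 1 to day 2 (Ctgf, Myl9, Cyr61 and Ankrd1; 20.8% of all genes were called and 12.9% rose) and 5 fell from day 2 to day 4 (Tagln, Myl9, Cald1, Cyr61 and Ankrd1; 41.3% were called and 20.3% fell). Cald1, at -0.23 (adjusted p = 0.078) from day 1 to day 2, was also called without the pair of libraries (-0.30, 0.021), without replicate 3 at 5 µM of day 1 alone (0.035), with median-of-ratios scaling (0.036), quantile normalization (0.0044) and DESeq2 (0.021).

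**Figure D2:**
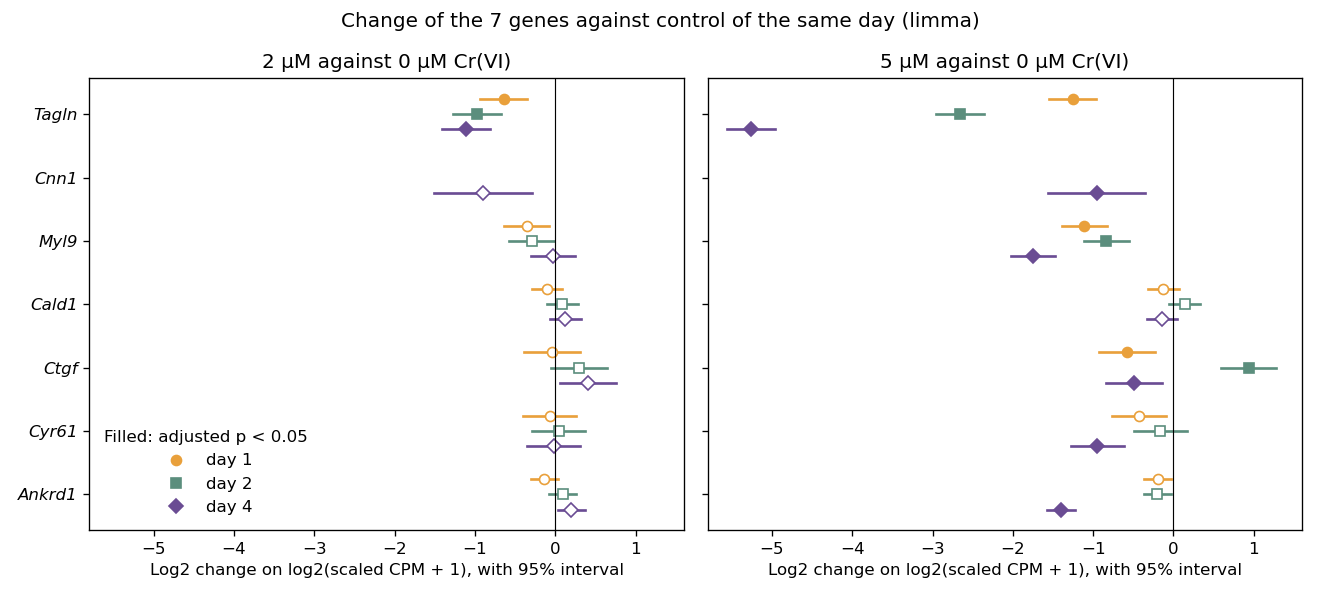
Log2 change of each of the 7 genes for 2 µM (left) and 5 µM (right) against untreated cells at days 1, 2 and 4 (Cnn1 at day 4 alone), filled where adjusted p is below 0.05, on the log2(scaled CPM + 1) scale with 95% intervals from limma. Tagln moves further below 0 each day at 5 µM, from -1.26 to -5.26, and Ctgf lies above 0 at 5 µM on day 2 alone.

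The order of group means differed between the genes. Tagln was highest in untreated day 4 cells (259.4 ± 39.2 scaled CPM, SD, n = 3) and had the 3 groups at 5 µM at the bottom, those of days 1 and 2 overlapping (18.3 ± 2.4 and 16.9 ± 3.9). Ctgf, Cyr61, Cald1 and Cnn1 were highest at day 0. Myl9 peaked in untreated day 2 cells (95.5 ± 9.6) and Ankrd1 at 2 µM on day 2 (452 ± 6.4), although that group overlapped with 2 µM at day 4. Day 4 at 5 µM was lowest for Tagln, Myl9, Cald1 and Ankrd1, with overlap with the next group for Myl9 and Cald1. Day 1 at 5 µM was lowest for Ctgf and Cyr61, overlapping the next in both. Over the 10 group means, Myl9 and Ankrd1 had a Pearson r of 0.85, Ctgf and Cyr61 0.79 and Tagln and Cyr61 0.79. Tagln and Cald1 were at 0.033, and Cald1 and Ctgf at -0.30. These are descriptions over 10 groups that share a time course.

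Among 9956 genes averaging at least 10 scaled CPM in some group, those nearest to each of the 7 in pattern over the 10 group means were named. Tagln was nearest to Zdhhc16 (r = 0.986), Abcg2 (0.973) and Mrpl33 (0.971). Zdhhc16 rose from 31.7 at day 1 to 74.5 at day 4 in untreated cells and was at 15.6 at 5 µM on day 4. Myl9 was nearest to Slco3a1 (0.977), Ece1 (0.968) and Trp53bp1 (0.966), and those near Cald1 included Helz2 (0.991) and Lrwd1 (0.988). Helz2 went from 21.0 at day 0 to 2.54 in untreated and 1.98 in 5 µM cells at day 4. Ctgf was nearest to Luzp1 (0.957), Prmt7 (0.955) and Eef1e1 (0.941), and Cyr61 to Cinp (0.972), Prpf31 (0.967) and Nol10 (0.965). For Ankrd1 the nearest were Adam9 (0.947), Xist (0.937) and Nes (0.934), the last encoding nestin. The low counts of Cnn1 came nearest to Uck2 (0.964), Anapc15 (0.959) and Dph3 (0.957). None of the 7 was among the 3 nearest of another.

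Most other contractile genes were also lower at 5 µM. Of 12 on the list, 11 had a row and 10 passed the filter; Myh11, the smooth muscle myosin heavy chain, did not. 9 of the 10 fell at day 1, 8 fell and 1 rose at day 2, and 9 fell and 1 rose at day 4, with median log2 changes of -0.65, -0.95 and -1.29. Of all genes 9.41%, 13.4% and 28.6% fell and 4.29%, 10.2% and 27.3% rose on those days, shares that stand as background to the lists that follow. Actg2, smooth muscle gamma-actin, averaged 1.57 scaled CPM at 5 µM on day 4 against 30.9 in untreated cells (-3.81). The myosin light chain kinase gene Mylk changed by -2.42, Synpo2, an actin-bundling protein of muscle, by -1.55, and Tpm2, beta-tropomyosin, by -2.03 (905 against 3700 scaled CPM). Acta2, smooth muscle alpha-actin and outside the naming rule, was at 1411 against 3248 (-1.20). The 1 gene that rose, also outside the rule, was Csrp1, a LIM protein, by 0.72. Tpm2, Tpm1 and Acta2 are also made by skeletal myoblasts, so the list is not particular to smooth muscle. At 2 µM 2, 1 and 3 of the 10 were called on the 3 days, all lower, where 1.48%, 0.247% and 3.74% of all genes were lower.

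Relatives of the 7 within their own families were called in both directions. Of 11, 10 passed; at 5 µM 4 fell at day 1, 2 rose and 4 fell at day 2, and 3 rose and 5 fell at day 4, where 27.3% of all genes rose and 28.6% fell. Ankrd2, the skeletal muscle relative of Ankrd1, averaged 4.47 scaled CPM against 80.3 in untreated cells at day 4 (-3.89), and Ankrd23 was at 10.2 against 63.1 (-2.53). Among the relatives of Ctgf and Cyr61, Wisp2 changed by -3.12 and Wisp1 by -1.80 (49.9 against 174 scaled CPM). The 3 that rose at day 4 were named after their values were seen. Tagln2, the non-muscle transgelin, was at 385 ± 26 scaled CPM at 5 µM and 137 ± 14 in untreated cells (SD, n = 3), a log2 change of 1.49 beside -5.26 for Tagln. Myl12b, a non-muscle relative of Myl9, rose by 1.41, and Nov (Ccn3), a relative of Ctgf, by 1.73. From day 2 to day 4 the untreated means went from 203 to 108 scaled CPM for Myl12b and from 102 to 21.2 for Nov. At 5 µM they went from 307 to 288 and from 86.2 to 72.3, so these means were also lower at day 4 than at day 2. In untreated cells Tagln2 declined from 845 at day 0 to 137 at day 4, the interval over which Tagln passed its day 0 level. At 5 µM Tagln2 averaged 394, 402 and 385 on days 1, 2 and 4. Of the calponin relatives, Cnn3 fell by 0.61, and Cnn2 was at 138 against 149 (-0.11, adjusted p = 0.30).

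SRF itself and its coactivators gave a mixed picture at 5 µM on day 4. Mkl2 rose by 0.89 and Mkl1 fell by 0.75, Srf changed by 0.25 (adjusted p = 0.070), and Myocd, which encodes myocardin, did not pass the filter. Of 14 cytoskeletal genes listed as SRF targets, 1 rose and 6 fell at day 1, 6 rose and 1 fell at day 2, and 7 rose and 2 fell at day 4, the medians being -0.21, 0.29 and 0.35. Actb, cytoplasmic beta-actin and a classical SRF target, averaged 2587 scaled CPM at 5 µM on day 4 against 993 in untreated cells (1.38). Actg1, cytoplasmic gamma-actin, rose by 1.12, the LIM-domain gene Fhl1 by 1.34 and Filip1l, a filamin-interacting protein relative, by 1.11. Both actins declined in untreated cells, Actb from 3810 at day 0 to 993 at day 4 and Actg1 from 5867 to 1359. At 5 µM Actb was at 2203, 2321 and 2587 on days 1, 2 and 4, and Actg1 at 4021, 3737 and 2946. Both were thus above untreated cells of day 4 but below their day 0 levels. The contractile genes and the cytoskeletal genes on these 2 lists thus had medians of opposite sign at days 2 and 4; that contrast was not tested. At 2 µM, 6 of the 14 rose at day 4 and none fell, where 5.11% of all genes rose.

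Further YAP targets were called in both directions, at day 4 in shares near those of all genes. Of 19 further YAP targets, 18 passed; 2 rose and 5 fell at day 1, 2 rose and 2 fell at day 2, and 6 rose and 7 fell at day 4 (27.3% of all genes rose and 28.6% fell), with medians of -0.10, 0.00 and -0.19. Rbms3, an RNA-binding protein, was at 2.25 against 41.6 scaled CPM at day 4 (-3.74), Ccdc80, an extracellular matrix protein, changed by -1.88 and Myof, myoferlin, a membrane-fusion protein, by -1.37. Lats2, which is both a YAP target and a YAP-inhibiting kinase, rose by 1.57 (151 against 51.3 scaled CPM). Its relative Lats1 rose by 1.76 (158 against 46.1), and already by 0.36 and 0.74 at days 1 and 2. Yap1 rose by 0.37 (116 against 89.4) and Wwtr1 fell by 0.93 (241 against 459). Of the TEAD genes, Tead4 fell by 1.71, Tead1 by 0.95 and Tead2 by 0.88, and Tead3 changed by -0.30 (adjusted p = 0.25). Tead4 was called lower on all 3 days, at -1.54 and -1.39 on days 1 and 2. The Hippo kinase gene Stk3 fell by 1.12. In all, 3 of the 14 Hippo and TEAD genes rose and 6 fell at day 4 (1 and 4 at day 1, 2 and 2 at day 2), with medians of -0.12, -0.02 and -0.38.

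TGF-beta signalling, a strong inducer of Tagln, Cnn1 and Ctgf in many cell types, was represented by 12 genes. At 5 µM 1 rose and 2 fell at day 1, 3 rose and 2 fell at day 2, and 5 rose and 4 fell at day 4 (27.3% of all genes rose and 28.6% fell), with medians of -0.05, 0.21 and 0.16. Ltbp1, which binds latent TGF-beta in the matrix, was at 21.9 against 157 scaled CPM at day 4 (-2.80), and the ligand gene Tgfb3 at 63.2 against 372 (-2.55). The receptor gene Tgfbr1 rose (158 against 73.5). Ltbp1 and Tgfb3 were also lower at 2 µM on day 4, by 0.60 and 0.66, both called. Tagln and Myl9 also fell at 5 µM on day 4, as did 4 of the 12 genes and 28.6% of all genes, while 5 of the 12 rose. At 2 µM on day 4 Tagln fell and Myl9 did not pass. Whether TGF-beta signalling had a part in these changes was not tested.

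**Figure D3:**
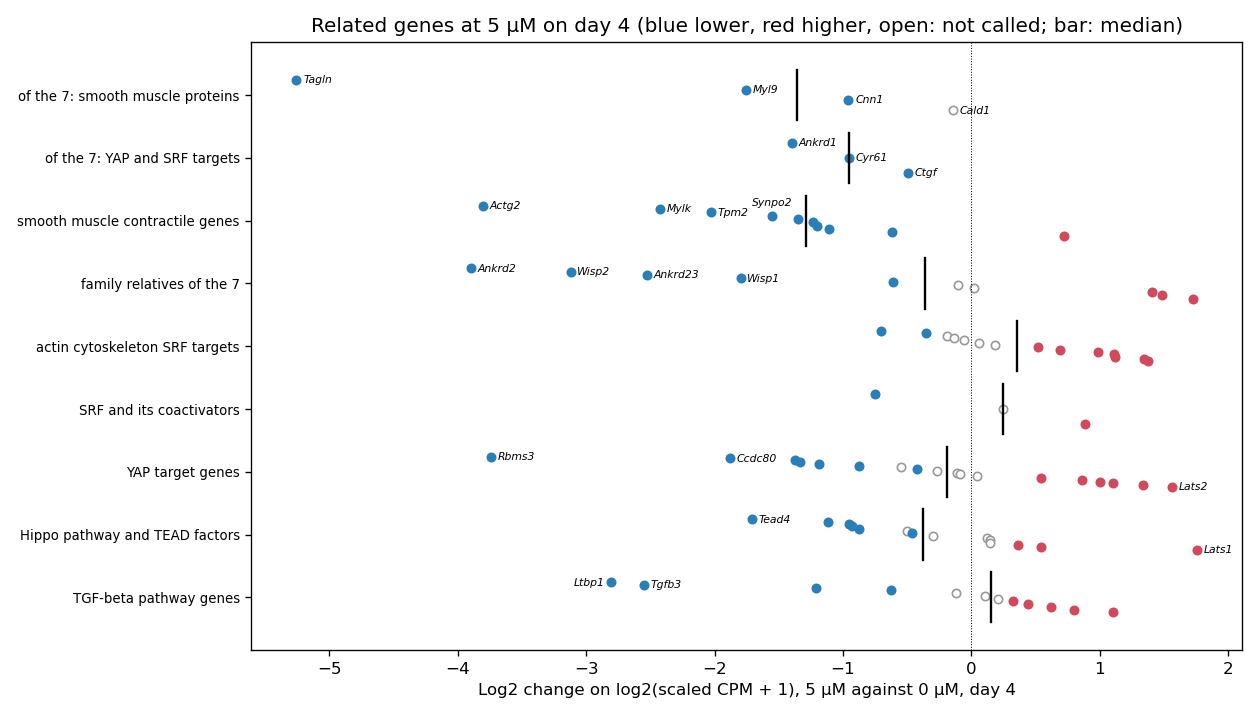
Log2 change at 5 µM against untreated cells on day 4 for every gene of each pathway list that passed the filter, with the 7 genes in rows of their own, on the log2(scaled CPM + 1) scale; points are genes (blue lower, red higher, open not called) and bars are list medians. The contractile genes lie below 0 apart from Csrp1 (0.72), and the cytoskeletal SRF targets, the YAP targets and the Hippo genes lie on both sides of 0.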

How the data were processed

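RNA was sequenced in 30 libraries, and the authors deposited 1 table of 48709 genes. Its values are a signal that the authors named CPM, per the file headers: read counts times 1 constant per library, with columns summing to 892246 to 1079916. How reads were aligned, counted and scaled is not stated in the labels or headers. Steps of 0.038 to 0.0584 per read gave back whole reads for 100% of values, within 0.02 of a read. No column was left unassigned to a sample.

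The 7 genes, the pathway lists, the marker lists and the tests were chosen with earlier results of these data known. log2(scaled CPM + 1) was fitted with limma 3.58.1 in R 4.3.3 (one mean for each group, variance trend, residual degrees of freedom 20), after keeping genes at 1 or more in at least 3 libraries. Benjamini-Hochberg adjustment ran over all 12946 genes, and calls needed an adjusted p below 0.05. Counting error is small at these depths except for Cnn1. For that reason, and after the data were seen, a log2 change is given only where a group of the comparison averages at least 1 scaled CPM, which affects Cnn1 alone. The recovered reads were tested with edgeR 4.0.16 and DESeq2 1.42.0 as alternatives. For 5 µM against untreated cells at day 4, limma called 7228 genes, edgeR 6806 and DESeq2 6953. The fits were tested on simulated data.

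Named genes are the 7, up to 4 genes per list with the greatest called change at 5 µM on day 4, all SRF, YAP and TEAD genes listed, and the 3 genes nearest in pattern to each of the 7. Replicates were no copies of each other. The other alternatives were pseudocounts, filters, scalings, robust variances, a replicate block, fits on the compared groups alone, and leaving out libraries. 1 listed gene, Tgfb1i1, was not matched and has no value here. Some results that the naming rule selects are not reported here.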

Additional observations from a re-analysis of the deposited data

Results flagged for a closer look

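For 5 of the 7 genes the effect of 5 µM Cr(VI) differed between days by the test of the difference itself (limma, adjusted over all genes; 3 libraries in each of the 4 groups involved). Between days 1 and 2 the effect on Tagln moved by -1.40 ± 0.21 (log2, SE; adjusted p = 1.5e-05), and that on Ctgf by 1.51 ± 0.24 (4.9e-05). Without the pair of day 1 libraries these were -1.34 and 1.58, both still called. Between days 2 and 4 the effect moved by -2.60 ± 0.21 for Tagln (adjusted p = 1.9e-11), -1.43 ± 0.24 for Ctgf (3.3e-05) and -1.20 ± 0.12 for Ankrd1 (2.1e-09). It moved by -0.92 ± 0.19 for Myl9 (5.6e-04) and -0.78 ± 0.23 for Cyr61 (0.011). Both Ctgf values share the day 2 libraries, so they are not independent of each other.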

How the results depend on the processing

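Of 100 changes of the 7 genes over the 16 comparisons, 60 were called. Of these, 46 kept the call under every alternative run, 14 lost it under at least 1, and none of the 60 reversed. Both 100 and 60 include Cnn1 from day 0 to day 1 in untreated cells, which is only described above and is no test result. The number of the 7 called stayed within 1.5 times of the value given, except in 4 comparisons. The smaller moves were to 2 and 4 at 5 µM against 0 on day 1 (3 genes), 4 on day 2 (3), 5 and 7 on day 4 (6), 5 and 6 in untreated day 1 against day 0 (7), 5 and 6 at 5 µM in day 2 against day 1 (4), and by 1 gene elsewhere; Cnn1 is counted throughout. The 4 were these. At 2 µM against 0 on day 1 (1 gene) it was 0 in a fit of only the groups compared and 0 to 1 with a replicate left out. At 2 µM against 0 on day 4 (1) it was 2 with no level filter, with median-of-ratios scaling, with quantile normalization and without both day 1 libraries, and 1 to 2 with a replicate left out. For 5 against 2 µM on day 1 (2) it was 0 with only the groups compared and 1 to 3 with a replicate left out. For untreated day 4 against day 2 (5) it was 3 to 4 with a replicate left out. Changes that reversed were small and not called. At 2 µM on day 1, Ctgf (-0.04) was 0.18 without both day 1 libraries, and -0.24 to 0.18 with a replicate left out. There Cyr61 (-0.07) was 0.0053 with edgeR, 0.0090 with DESeq2, and -0.36 to 0.14 with a replicate left out. With a replicate left out, Cyr61 at 2 µM ran from -0.0348 to 0.0846 on day 2 and -0.12 to 0.11 on day 4, and Myl9 from -0.0908 to 0.0688 on day 4. For 5 against 2 µM on day 1, Cald1 was 0.0415 with quantile normalization and -0.11 to 0.0457 with a replicate left out. There Cyr61 (-0.36) was 0.0597 without both day 1 libraries and -0.57 to -0.0646 with a replicate left out, and Ankrd1 -0.15 to 0.0548. Leaving out a replicate also gave -0.0403 to 0.32 for Ctgf in untreated day 2 against day 1. At 5 µM it gave -0.24 to 0.0664 for Tagln (day 2 against day 1), -0.11 to 0.0918 for Ctgf (day 4 against day 2) and -0.12 to 0.081 for the Ankrd1 effect (day 2 minus day 1).

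Over all genes, fits of only the groups compared called 855 in place of 1774 at 5 µM on day 1, 0, 324 and 445 in place of 258, 66 and 1145 at 2 µM on days 1, 2 and 4, and 24 in place of 717 for 5 against 2 µM on day 1. Without both day 1 libraries, 2 µM gave 116 on day 1 and 130 on day 2, and 5 against 2 µM gave 406 on day 1. At 2 µM DESeq2 called 457 on day 1 and 170 on day 2, the fit with no level filter 38 on day 2, and fits with a replicate left out 88 to 465 on day 1 and 19 to 31 on day 2. Same-numbered replicates did not deviate together: the correlations ran from -0.23 to 0.092, and in 0 of 14 comparisons did every pair exceed 0.1. With the replicate block, 7222 genes were called at 5 µM on day 4 in place of 7228, and 1772 in place of 1774 on day 1. Depth limits the results on Cnn1, which had at most 12 reads outside day 0 and untreated day 4 cells.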
